A study of Mus musculus with 2 samples.

Results

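The genes described here are the nuclear-encoded subunits of the mitochondrial respiratory chain and ATP synthase, read in single nuclei of mouse tibialis anterior (TA) muscle. They were chosen by symbol, as the rows whose symbol begins with *Nduf*, *Uqcr*, *Atp5* or *Cox4* to *Cox8*, pseudogenes left out. *Sdha*, *Sdhb*, *Sdhc*, *Sdhd*, *Cyc1* and *Cox16* were added by name. The choice was made with earlier results of these data known, and *Cox16* is a gene that the study itself examined. The rule gave 95 of the 32285 genes in the matrices. By known function, 36 of them encode subunits of complex I (7 core and 29 accessory), 4 of complex II, 9 of complex III, 19 of complex IV and 17 of complex V. A further 8 (*Ndufaf1* to *Ndufaf8*) encode assembly factors of complex I, and *Cox16* and *Cox7a2l* encode factors that help to assemble complex IV or to join it to other complexes. The genes of the chain that lie on mitochondrial DNA are not among the 95.

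The respiratory chain passes electrons from NADH (complex I) and succinate (complex II) through ubiquinone to complex III, then through cytochrome c to complex IV and oxygen, and complex V uses the resulting proton gradient to make ATP. All subunits of complex II and most of the other complexes are encoded in the nucleus, made in the cytosol and imported. In muscle, the slow (*Myh7*) and type IIa (*Myh2*) fibres are rich in mitochondria, type IIx (*Myh1*) fibres are intermediate in many muscles and type IIb (*Myh4*) fibres are glycolytic, and several complex IV subunits have a heart and muscle form beside the form of other tissues.

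The data were 2 single-nucleus RNA libraries, in which each RNA molecule carries a unique molecular identifier (UMI) so that copies are counted once. The library labelled KO came from M-*Bcl6* KO mice (*Myf6*-Cre+ *Bcl6* fl/fl, with loxP sites around exons 7 to 9) and that labelled WT from M-*Bcl6* WT littermates (*Myf6*-Cre+ *Bcl6* wt/wt), so both carried Cre under the *Myf6* promoter, which acts in skeletal muscle. Both came from C57BL/6 males, 6 weeks old, and each pooled the right and left TA of 2 mice, with nuclei sorted on the DNA dye 7-AAD. With 1 library per genotype there is no replicate check, so no test was run, nuclei were not treated as replicates, and all intervals are exact 95% intervals that cover counting error only.

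The deposited matrices held 3798 barcodes with 11974138 UMIs (labelled WT) and 4096 barcodes with 12026013 UMIs (labelled KO), and 6 barcode sequences occurred in both. Myonuclei, the nuclei in which 10 genes of the contractile apparatus made up at least 1% of UMIs, numbered 2531 with 9088491 UMIs and 3184 with 9849201 UMIs. *Bcl6* went against the labels: it had 1536 UMIs, or 169 CPM (UMIs per 1000000 UMIs of the nuclei counted), in the library labelled WT and 4911 UMIs, or 499 CPM, in that labelled KO, a log2 ratio of 1.56 (1.48 to 1.64). Counts per gene do not show which exons were read, so they do not check the deletion, and every direction between libraries below is between the libraries as labelled.

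Promoter sequences are shown for 4 members that the results turn on, since genes of the chain are known to share regulators of this region, among them NRF1, the ETS factor GABP, YY1 and the estrogen-related receptors (ERR). Each is the RefSeq window on GRCm38.p6 of 250 bases before and 50 after a transcription start, written 5′ to 3′ on the strand of the gene, with capitals marking an exact match to one of the motif words below. *Sdhb* (chr4:140961021-140961320, plus strand) is shown for its large difference between fibre types, with an NRF1 word on the opposite strand. *Cox16* (chr12:81485088-81485387, minus strand) was the member that went against the others, with an ETS word on the opposite strand. RefSeq gives *Cox16* another start, whose window (chr12:81484802-81485101) holds none of the words and is not printed. *Ndufs4* (chr13:114388045-114388344, minus strand) was the complex I gene with most UMIs, with a YY1 word on its own strand, and *Sdhd* (chr9:50603800-50604099, minus strand) is 1 of the 2 members with an ERR word.
Sdhb: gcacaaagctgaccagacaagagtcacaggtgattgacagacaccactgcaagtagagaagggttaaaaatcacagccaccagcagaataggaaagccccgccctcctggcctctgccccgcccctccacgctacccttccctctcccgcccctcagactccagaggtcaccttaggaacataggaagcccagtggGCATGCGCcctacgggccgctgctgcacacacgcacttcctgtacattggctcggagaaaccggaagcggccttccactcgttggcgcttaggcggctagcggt
Cox16: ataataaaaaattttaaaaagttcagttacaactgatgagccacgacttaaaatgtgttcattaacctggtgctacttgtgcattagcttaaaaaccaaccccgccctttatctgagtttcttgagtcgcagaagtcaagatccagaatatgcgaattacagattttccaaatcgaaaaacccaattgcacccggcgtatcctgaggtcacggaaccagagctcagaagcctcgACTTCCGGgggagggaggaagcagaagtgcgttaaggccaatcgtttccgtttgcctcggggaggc
Ndufs4: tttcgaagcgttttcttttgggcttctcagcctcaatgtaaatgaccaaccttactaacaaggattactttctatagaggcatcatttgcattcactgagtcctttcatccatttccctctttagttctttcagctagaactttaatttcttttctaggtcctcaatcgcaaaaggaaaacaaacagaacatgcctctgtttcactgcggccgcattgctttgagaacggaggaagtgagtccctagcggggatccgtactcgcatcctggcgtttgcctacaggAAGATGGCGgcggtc
Sdhd: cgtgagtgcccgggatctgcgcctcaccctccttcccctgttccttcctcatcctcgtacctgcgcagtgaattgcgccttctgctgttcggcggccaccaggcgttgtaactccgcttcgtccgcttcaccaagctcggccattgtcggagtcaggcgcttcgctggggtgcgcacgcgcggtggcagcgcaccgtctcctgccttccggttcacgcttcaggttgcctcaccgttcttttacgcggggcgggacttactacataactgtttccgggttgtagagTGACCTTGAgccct

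Of the 95 members, 76 matched a RefSeq promoter by symbol, and each motif was searched as 1 exact word on both strands. GCGCATGC (NRF1), which overlaps its own reverse complement, was found in 12 of the 76 (15.8%) and in 3.68% of the 20267 genes with such a window. AAGATGGCG (YY1) was found in 8 members (10.5%) and in 1.98% of all genes, CCGGAAGT (ETS) in 6 members (7.89%) and 5.31% of all genes, and TCAAGGTCA (ERR) in *Atp5g3* and *Sdhd* (2.63%) and 0.434% of all genes. The BCL6 word TTCCTAGAA was in none of the 76 members' windows and in 0.449% of all genes. At least 1 of the first 4 words was in 27 members (35.5%) and in 10.7% of all genes. The NRF1 word was in 8 of 42 members with a higher level in the library labelled KO and in 4 of 25 with a lower level. These counts describe letters in 1 window per start and say nothing about binding.

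Of the 95 members, 94 had a UMI in myonuclei and 83 had at least 200 UMIs over both libraries, the minimum used for ratios between libraries. Together they gave 4608 CPM (41883 UMIs) in the library labelled WT and 4577 CPM (45084 UMIs) in that labelled KO. Summed by complex, the members of complex I reached 1485 and 1438 CPM, those of complex II 498 and 469 CPM, those of complex III 381 and 401 CPM, those of complex IV 586 and 686 CPM and those of complex V 1049 and 1145 CPM. These sums add genes of different length and number, so they compare a complex with itself across groups and not with the others.

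Long genes were among the members with the most UMIs. *Cox16*, which spans 126 kb, had 401 CPM in the library labelled WT and 268 CPM in that labelled KO. *Ndufs4*, an accessory subunit of complex I that spans 100.5 kb, had 303 and 277 CPM. *Ndufs1*, the largest core subunit, had 226 and 195 CPM, and *Sdha*, the flavoprotein of complex II that oxidises succinate, had 225 and 208 CPM. Over 94 members the mean CPM of the libraries rose with gene span (Spearman rho 0.43, a description over genes counted in the same libraries).

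Per kb of gene span the order was another one. *Cox6a2*, the heart and muscle form of complex IV subunit 6A, was highest at 43.0 CPM per kb, followed by *Cox7c* (complex IV) at 32.9, *Atp5l* (subunit g of ATP synthase) at 24.3, *Cox8b* (the muscle form of complex IV subunit 8) at 23.0 and *Atp5k* (subunit e of ATP synthase) at 20.1. *Ndufs4* stood at 2.89 and *Cox16* at 2.65 CPM per kb. Short genes of complexes IV and V therefore led on this scale, and long ones on the unscaled one.

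Fibre types were read from the main *Myh* gene of each myonucleus, which the rule for members does not use. *Myh4*-main nuclei numbered 719 (labelled WT) and 622 (labelled KO), *Myh1*-main nuclei 1168 and 1193, and *Myh2*-main nuclei 238 and 486. *Myh7*-main nuclei, 3 and 19, were too few to compare, and 403 and 864 nuclei had no *Myh* UMI or a tie. The grouping held for a gene outside it: *Actn3*, an actin-binding protein of fast glycolytic fibres, had 403, 54.1 and 17.9 CPM in the *Myh4*-, *Myh1*- and *Myh2*-main nuclei of the library labelled WT and 233, 42.7 and 27.2 CPM in that labelled KO.

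The 95 members together were lower in *Myh4*-main nuclei than in the other fibre types of both libraries. Their summed level in *Myh4*-, *Myh1*- and *Myh2*-main nuclei was 3427, 5381 and 5481 CPM in the library labelled WT and 3452, 5146 and 5732 CPM in that labelled KO. *Myh2*-main over *Myh4*-main, the log2 ratio was 0.68 (0.63 to 0.73) and 0.73 (0.68 to 0.78). The neighbours *Myh2*- and *Myh1*-main nuclei differed by 0.03 (−0.02 to 0.07) in the library labelled WT, an interval that includes 0, and by 0.16 (0.12 to 0.19) in that labelled KO. *Cox16*, lower in *Myh2*- than in *Myh1*-main nuclei, held 241 of the members' 4900 and 1712 of their 24348 UMIs there in the library labelled WT. Nuclei without a main *Myh* gene stood near the *Myh4*-main level, at 3473 and 3570 CPM, log2 ratios of 0.02 (−0.04 to 0.07) and 0.05 (0.00 to 0.10).

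Every complex showed this difference. *Myh2*-main over *Myh4*-main, the log2 ratio of summed CPM for complex I was 0.73 (0.64 to 0.82) in the library labelled WT against 0.76 (0.68 to 0.85) in that labelled KO. For complex II it was 1.00 (0.85 to 1.15) and 0.77 (0.63 to 0.92), for complex III 1.09 (0.91 to 1.28) and 0.91 (0.75 to 1.07), for complex IV 0.86 (0.71 to 1.00) and 0.80 (0.68 to 0.92), and for complex V 0.79 (0.68 to 0.90) and 0.92 (0.83 to 1.02). All 10 intervals lay above 0, and the libraries' intervals overlapped for each complex. The assembly factors of complex I had smaller ratios of 0.59 (0.33 to 0.84) and 0.43 (0.18 to 0.69).

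**Figure D1:**
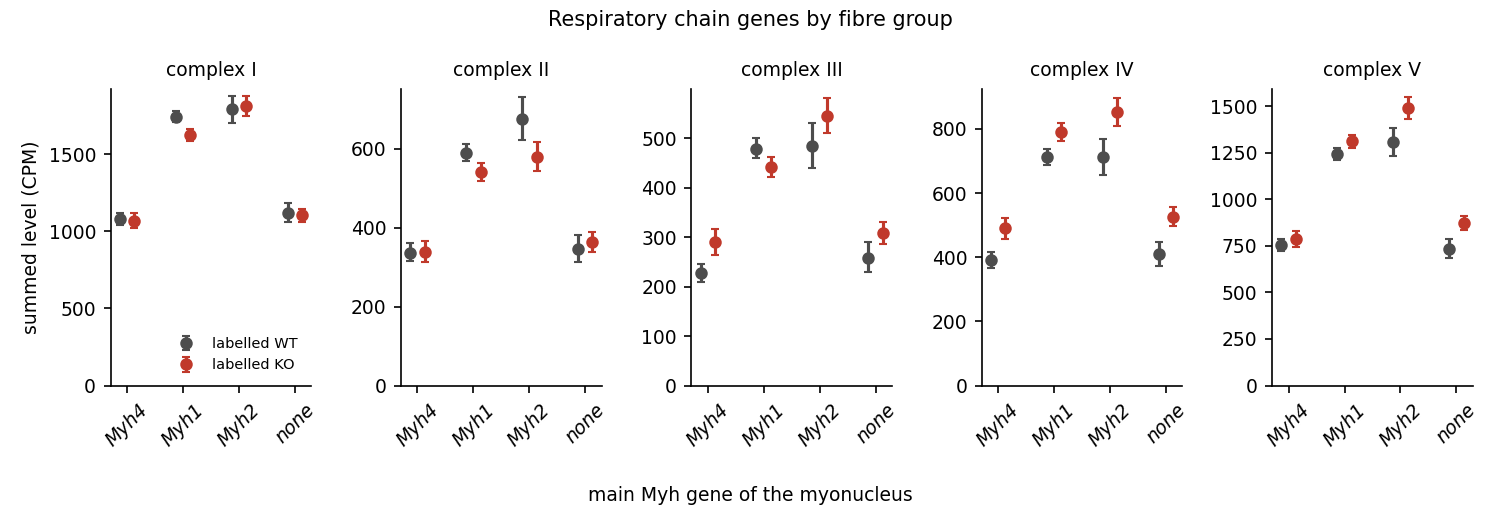
Summed level of each complex (y axis, CPM, from 0, a separate scale per panel) in myonuclei grouped by main Myh gene (x axis; none, no Myh UMI or a tie), for the library labelled WT (grey) and labelled KO (red); points are UMI sums over nuclei of 1 library and bars exact 95% counting intervals. In all 5 panels and both libraries, the Myh1 and Myh2 groups lie above the Myh4 group and the nuclei without a main Myh gene lie close to it, as for complex V in the library labelled WT with 754 CPM (Myh4), 1242 CPM (Myh1), 1304 CPM (Myh2) and 735 CPM (none).

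Member by member, those with at least 50 UMIs in the 2 fibre groups together had a median log2 ratio of *Myh2*-main over *Myh4*-main of 0.87 (65 members) in the library labelled WT and 0.82 (75 members) in that labelled KO, where the medians of all genes so tested were −0.01 and −0.04. At least 1.5-fold higher were 47 of 65 members, against 18.9% of 6333 genes, and 48 of 75 members, against 19.6% of 6176 genes. Of 64 members with enough UMIs in both libraries, 58 were higher in *Myh2*-main nuclei in both, 2 in the library labelled WT alone, 3 in that labelled KO alone and 1, *Cox16*, in neither. The ratios in the libraries share no nuclei, so the second library repeats the first on other mice, of the other genotype label.

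*Sdhb*, the iron-sulphur subunit of complex II whose promoter is shown above, was among the 3 highest in both libraries. It had 28.6, 84.2 and 92.8 CPM in *Myh4*-, *Myh1*- and *Myh2*-main nuclei of the library labelled WT and 27.9, 87.1 and 102 CPM in that labelled KO, log2 ratios of 1.70 (1.23 to 2.17) and 1.88 (1.41 to 2.36). *Sdha*, in the same complex, had smaller ratios of 0.58 (0.35 to 0.81) and 0.43 (0.21 to 0.65), with intervals apart from those of *Sdhb* in both libraries. *Sdhc*, a membrane anchor of that complex, had 1.36 (1.12 to 1.61) and 0.86 (0.60 to 1.11). Subunits of 1 complex thus differed in how far their nuclear counts moved between fibre types.

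Other members with large ratios were accessory subunits of complex I. *Ndufb3* had 1.77 (1.24 to 2.30) and 1.41 (0.94 to 1.90), and *Ndufb10* had 1.65 (0.71 to 2.60) and 1.70 (0.88 to 2.58). *Ndufc2*, at 1.74 (0.90 to 2.58) in the library labelled WT, had 0.64 (−0.14 to 1.45) in that labelled KO, and *Ndufc1*, at 1.64 (0.77 to 2.59) in that labelled KO, had 0.02 (−1.12 to 1.05) in that labelled WT. For these low genes the place among the highest held in 1 library only.

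Among the more abundant catalytic and structural subunits, *Atp5a1*, the alpha subunit of ATP synthase, had 1.16 (0.85 to 1.48) and 1.37 (1.05 to 1.70), *Atp5c1*, the gamma subunit, 1.20 (0.92 to 1.48) and 1.22 (0.95 to 1.49), and *Uqcrc2*, a core protein of complex III, 1.05 (0.68 to 1.42) and 1.33 (1.01 to 1.66). *Atp5l*, with most UMIs in complex V, had 0.21 (−0.05 to 0.46) in the library labelled WT against 0.81 (0.58 to 1.03) in that labelled KO. *Cox7c* was alike in both fibre types of the library labelled WT within a wide interval, at 0.03 (−0.59 to 0.62), and had 0.41 (0.06 to 0.78) in that labelled KO.

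*Cox16*, a factor for assembly of complex IV, ran the other way. It had 466, 378 and 270 CPM in *Myh4*-, *Myh1*- and *Myh2*-main nuclei of the library labelled WT and 327, 257 and 243 CPM in that labelled KO, log2 ratios of −0.79 (upper bound −0.59) and −0.43 (−0.62 to −0.24). The remaining members with low ratios were not below 0 beyond counting error, as for *Ndufb8* at −0.49 (−1.65 to 0.54) in the library labelled WT and *Atp5mpl* at −0.20 (−0.94 to 0.53) and *Ndufa12* at −0.13 (−0.71 to 0.44) in that labelled KO. Each of these 3 was above 0 in the other library. The span of *Cox16* (chr12:81359026-81485127, GENCODE M21) is wholly overlapped on its strand by *Gm20498*, an annotated gene not in the matrices, so its UMIs cannot be divided between them.

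**Figure D2:**
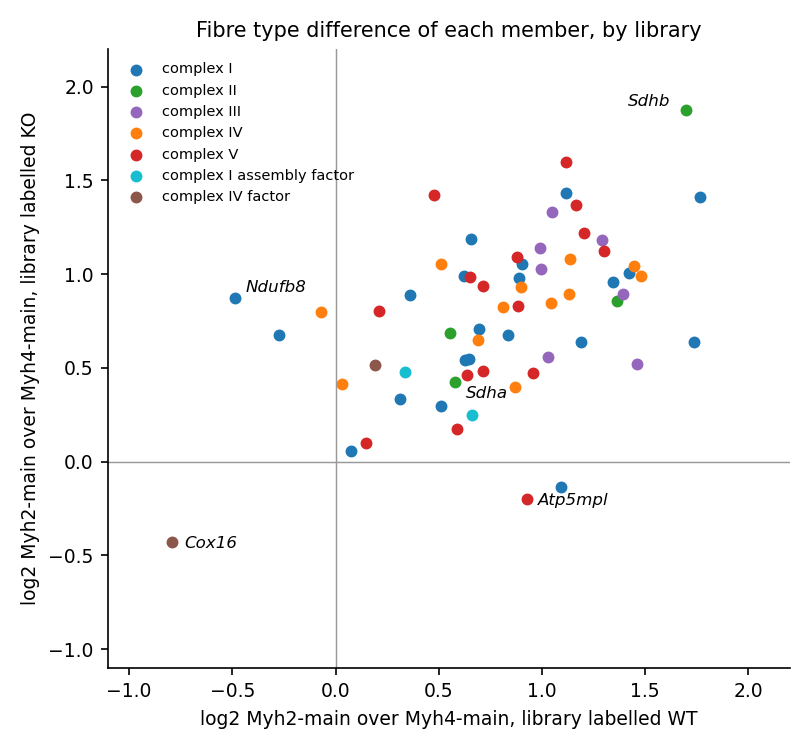
Log2 ratio of Myh2-main over Myh4-main nuclei in the library labelled WT (x axis) and labelled KO (y axis) for the 64 members with at least 50 UMIs in these fibre groups of each library, coloured by complex; lines mark 0. The upper right quadrant holds 58 members, and Cox16, at −0.79 and −0.43, is the only point below 0 on both axes.

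Between the libraries, the members together, *Cox16* included, stood at about the same summed level in myonuclei, with a log2 ratio of the library labelled KO over that labelled WT of −0.01 (−0.03 to 0.01). Most other genes were lower in the library labelled KO on this scale. The median over 7164 genes with at least 200 UMIs was −0.14, and 67.0% of them lay below 0, whereas the median of the 83 members was 0.10 and 31 of them (37.3%) lay below 0. Relative to the median gene the members' sum was 0.13 higher. *Cox16*, itself lower in the library labelled KO, held 3640 of the members' 41883 UMIs (labelled WT) and 2644 of 45084 (labelled KO). The members' sum without it was not computed. At least 1.5-fold lower was 1 of 83 members, against 9.62% of 7164 genes, and 6 of 83 were at least 1.5-fold higher, against 6.18% of genes. Under TMM scaling 0 members were lower and 11 higher, against 5.68% and 8.88% of the same genes, and the members' median was 0.25 with the median gene at 0.00. In nuclei without a mitochondrial UMI, where 28 members had enough UMIs, 0 were lower and 1 higher, against 9.55% and 5.91% of 4041 genes. There the members' median turned to −0.08, with the median gene at −0.14, and thinned to 1000 UMIs per nucleus it was 0.02 over 34 members.

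The complexes did not move alike. Complex IV was higher in the library labelled KO, with a log2 ratio of 0.23 (0.18 to 0.28), as was complex V, with 0.13 (0.09 to 0.17), and complex III, with 0.07 (0.01 to 0.14). Complex I stood at −0.05 (−0.08 to −0.01) and complex II at −0.08 (−0.14 to −0.02), but both turned positive, to 0.10 and 0.06, under TMM scaling, which sets the median gene near 0. That scaling raised every ratio between libraries by 0.15, so single members and groups that lay below 0 by less than this turned positive under it. The assembly factors of complex I were lower, with −0.34 (−0.44 to −0.23), and stayed below 0, at −0.19, under TMM scaling.

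The members with the highest ratios were short genes of complex IV. *Cox5b*, a zinc-binding subunit, had 99 UMIs (10.9 CPM) in the library labelled WT against 206 UMIs (20.9 CPM) in that labelled KO, a log2 ratio of 0.94 (0.59 to 1.30). *Cox6a2* went from 29.5 to 52.4 CPM, 0.83 (0.61 to 1.05), and *Cox7c* from 51.2 to 86.2 CPM, 0.75 (0.59 to 0.92). *Cox7a1*, the heart and muscle form of subunit 7A, had 0.70 (0.31 to 1.10). The other 2 of the 6 were *Ndufa13* of complex I, with 0.63 (0.31 to 0.95), and *Atp5k*, with 0.61 (0.33 to 0.89). *Ndufa13* overlaps *Yjefn3* on the same strand, which had 15 and 25 UMIs of its own. In nuclei without a mitochondrial UMI the ratio of *Cox5b* was 0.34, and those of *Cox6a2* and *Cox7c* were 0.73 and 0.80.

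The remaining members of complex IV moved less, so that its median member stood at 0.16, below the 0.23 of its sum. *Cox7b*, its member with most UMIs, had 111 and 109 CPM, a ratio of −0.02 (−0.15 to 0.10), *Cox5a* had 69.0 and 75.4 CPM, 0.13 (−0.03 to 0.28), and *Cox4i1* had 60.3 and 68.5 CPM, 0.18 (0.02 to 0.35). *Ndufa4*, now assigned to complex IV, had 40.7 and 40.5 CPM, −0.01 (−0.21 to 0.20). In complex V, 2 of 17 members were below 0. *Atp5b*, the catalytic beta subunit, had 0.26 (0.14 to 0.37), whereas *Atp5a1* had −0.03 (−0.15 to 0.09), *Atp5c1* 0.02 (−0.08 to 0.12) and *Atp5f1*, the stator subunit b, 0.00 (−0.11 to 0.10). *Atp5g1*, *Atp5g2* and *Atp5g3*, whose products form the same c ring, had 0.14 (−0.13 to 0.41), 0.21 (−0.01 to 0.44) and 0.08 (−0.13 to 0.30).

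In complex III, 2 of 9 members were below 0, and the highest was *Cyc1*, cytochrome c1, with 0.46 (0.19 to 0.73), a gene named after its value was seen. *Uqcrc2* had 0.07 (−0.06 to 0.20) and *Uqcrc1* 0.14 (−0.03 to 0.30). *Uqcrh*, the hinge protein, was lower, with 89.3 and 74.8 CPM, −0.26 (−0.40 to −0.11). In complex II, *Sdha* had −0.12 (−0.21 to −0.03), *Sdhc* −0.14 (−0.23 to −0.04) and *Sdhb* 0.11 (−0.05 to 0.27). In complex I, 15 of the 33 members with enough UMIs were below 0, among them *Ndufs4* with −0.13 (−0.21 to −0.05), *Ndufs1* with −0.22 (−0.31 to −0.13) and *Ndufv2* with −0.12 (−0.25 to 0.00).

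The 5 lowest members were all assembly factors. *Ndufaf2* had 188 and 130 UMIs, or 20.7 and 13.2 CPM, a ratio of −0.65 (−0.98 to −0.32), and was the member past 1.5-fold lower. *Cox16* had 3640 and 2644 UMIs, a ratio of −0.58 (−0.65 to −0.50), which was −0.35 in nuclei without a mitochondrial UMI. *Cox16* entered the rule by name with earlier results of these data known, so its rank here is not an independent result. *Ndufaf5* had −0.52 (−0.94 to −0.11), *Ndufaf6* −0.30 (−0.51 to −0.08) and *Ndufaf4* −0.29 (−0.44 to −0.14). All 4 *Ndufaf* genes with enough UMIs therefore stood below 0 and below the median gene. *Ndufaf2*, *Cox16*, *Ndufaf5* and *Ndufaf6* are also long genes, of 156, 126, 33.0 and 25.2 kb, whereas *Ndufaf4* spans 6.92 kb. Members over 25 kb were lower in the library labelled KO (below), so function and gene length cannot be told apart for these long members, *Ndufaf4* not included. All genes over 25 kb had a median of −0.17, near the −0.14 of all 7164 genes.

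**Figure D3:**
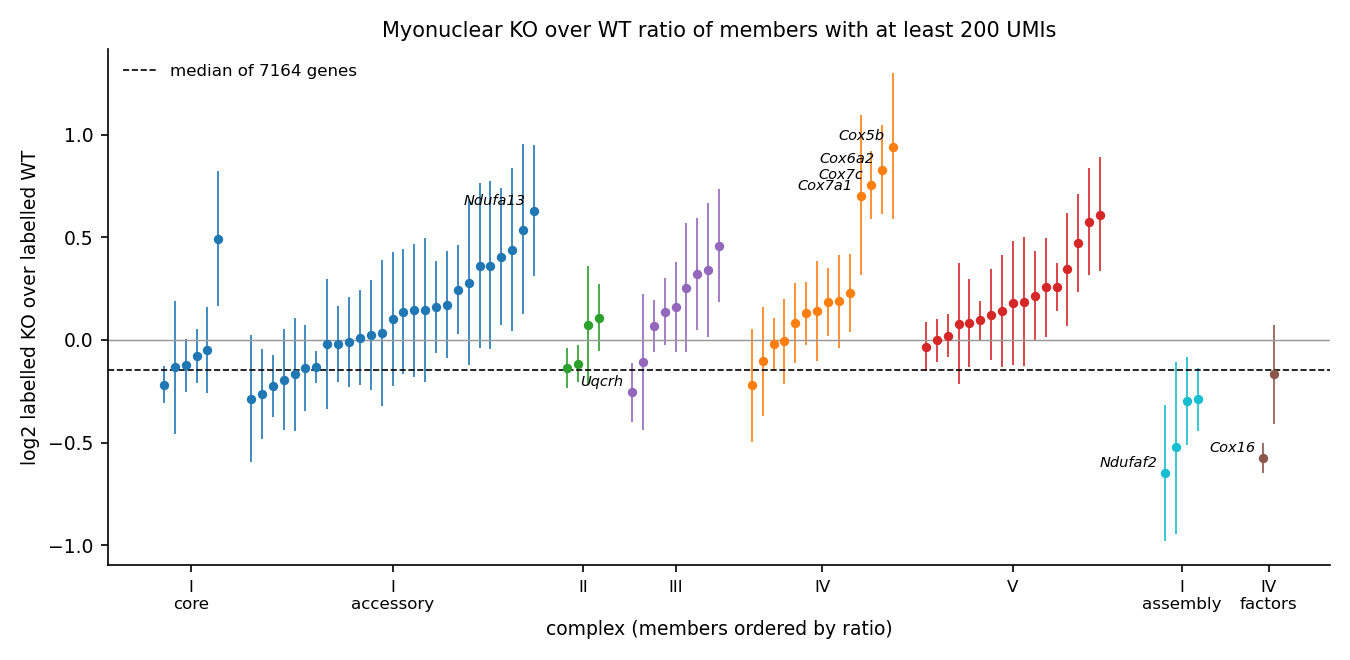
Log2 ratio of the library labelled KO over that labelled WT in myonuclei (y axis) for the 83 members with at least 200 UMIs, grouped by complex and ordered within it (x axis); bars are exact 95% counting intervals and the dashed line is the median of 7164 genes, at −0.14. The high end of complex IV (Cox5b at 0.94) and the assembly factors at the right (Ndufaf2 at −0.65, Cox16 at −0.58) lie farthest from the other members.

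The ratio between libraries followed gene length among the members. Over the 83, the Spearman rho of log2 ratio and gene span was −0.60, against −0.04 over 7164 genes, both given as descriptions over genes counted in the same 2 libraries. Members with a span up to 5 kb had a median ratio of 0.32, with 3 of 25 below 0, and those over 25 kb had −0.23, with 9 of 9 below 0. All genes moved in the same order but less, with medians of 0.09 up to 5 kb (287 genes, 42.9% below 0) and −0.17 over 25 kb (4625 genes, 69.2% below 0). Members between these lengths had medians of 0.09 (30 members from 5 to 10 kb) and 0.02 (19 members from 10 to 25 kb).

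**Figure D4:**
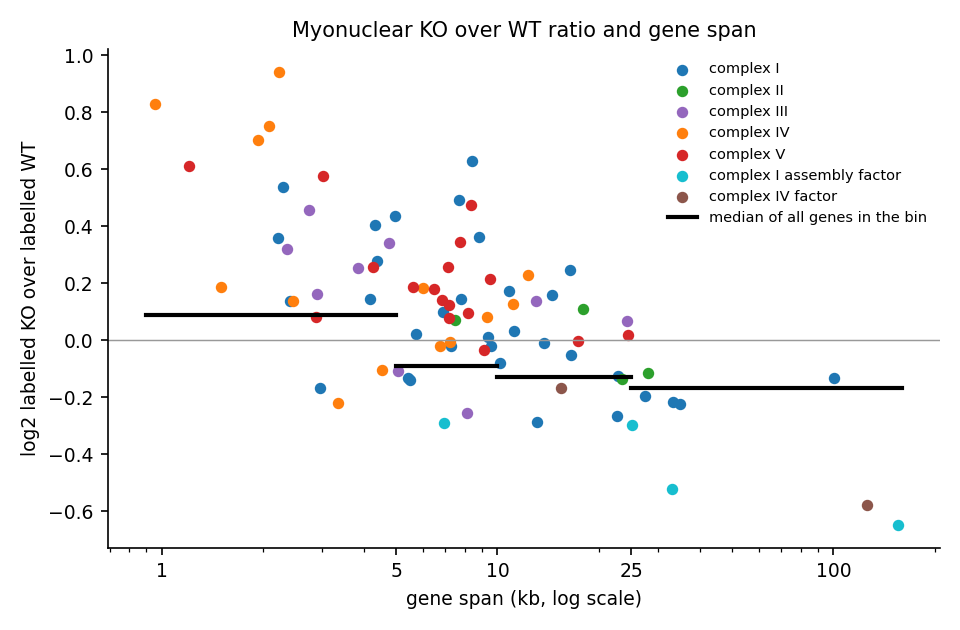
Log2 ratio of the library labelled KO over that labelled WT in myonuclei (y axis) against gene span in kb (x axis, log scale) for 83 members, coloured by complex; black bars are the median of all genes with at least 200 UMIs in each range of span. Members run from a median of 0.32 up to 5 kb to −0.23 over 25 kb, and all genes from 0.09 to −0.17.

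Summed over all 32 members up to 5 kb, the level was 552 CPM in the library labelled WT and 704 CPM in that labelled KO, a log2 ratio of 0.35 (0.30 to 0.40), and over the 10 members above 25 kb it was 1344 and 1103 CPM, −0.28 (−0.32 to −0.25). In nuclei without a mitochondrial UMI these ratios were 0.28 (0.18 to 0.39) and −0.26 (−0.33 to −0.19). The short members were higher in the library labelled KO in *Myh4*-main nuclei, with 0.40 (0.27 to 0.54), in *Myh1*-main nuclei, with 0.30 (0.23 to 0.37), and in *Myh2*-main nuclei, with 0.28 (0.15 to 0.42). The long members were lower in the first 2, with −0.30 (−0.38 to −0.21) and −0.32 (−0.37 to −0.26), and had −0.09 (−0.19 to 0.01) in *Myh2*-main nuclei. Of the long members' UMIs in all myonuclei, *Cox16* held 3640 of 12216 (labelled WT) and 2644 of 10868 (labelled KO). The sums of long members thus lean on this gene, and they were not computed without it. In nuclei other than myonuclei the short members had 0.22 (0.06 to 0.37) and the long ones −0.02 (−0.13 to 0.10), and *Cox16* had 228 and 246 CPM there, 0.11 (−0.08 to 0.30).

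Other short or cytoplasmic RNAs differed between the libraries too. The 82 cytosolic ribosomal protein genes, short genes with abundant cytoplasmic mRNA, had 837 and 1159 CPM in myonuclei, a ratio of 0.47 (0.43 to 0.51), and the 13 chain genes of mitochondrial DNA had 592 and 689 CPM, 0.22 (0.17 to 0.27). In nuclei other than myonuclei the ribosomal protein genes went the other way, with −0.36 (−0.43 to −0.29). Mitochondrial UMIs were 0.0592% of myonuclear UMIs in the library labelled WT against 0.0689% in that labelled KO. Their part in the members' ratios was not tested, and whether intronic reads were counted is not stated.

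The fibre type makeup of the libraries also differed. *Myh2*-main nuclei were 9.40% of myonuclei in the library labelled WT and 15.3% in that labelled KO, *Myh4*-main nuclei 28.4% and 19.5%, and nuclei with no main *Myh* gene 15.9% and 27.1%. With the fibre groups given the same weights in both libraries, the ratios between libraries of all 5 complexes stayed within the intervals given above.

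Within fibre types, the members together had ratios between the libraries of 0.01 (−0.04 to 0.06) in *Myh4*-main, −0.06 (−0.09 to −0.04) in *Myh1*-main and 0.06 (0.01 to 0.11) in *Myh2*-main nuclei. Complex IV was higher in the library labelled KO in all 3, with 0.32 (0.19 to 0.45), 0.15 (0.08 to 0.22) and 0.26 (0.13 to 0.40), although its median member stood at 0.17, 0.03 and 0.01. Complex V had 0.06 (−0.04 to 0.16), 0.08 (0.02 to 0.13) and 0.19 (0.09 to 0.29). Complex I had −0.01 (−0.10 to 0.07), −0.10 (−0.15 to −0.05) and 0.02 (−0.07 to 0.11), and complex II had 0.01 (−0.15 to 0.16), −0.13 (−0.21 to −0.04) and −0.22 (−0.37 to −0.07). Complex III had 0.35 (0.18 to 0.53), −0.12 (−0.21 to −0.03) and 0.17 (0.00 to 0.34). Under TMM scaling the *Myh1*-main values turned to 0.04 for complex I, 0.02 for complex II and 0.03 for complex III.

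Few members were past 1.5-fold lower in any fibre type. They were 3 of 69 in *Myh4*-main nuclei, against 13.7% of 6763 genes, 1 of 87 in *Myh1*-main nuclei, against 13.1% of 8581 genes, and 2 of 71 in *Myh2*-main nuclei, against 13.3% of 5442 genes. Lower in all 3 fibre types were 12 of 66 members (18.2%) and 40.0% of 5216 genes, and higher in all 3 were 15 members (22.7%) and 14.6% of those genes. *Cox16* had −0.51 (−0.66 to −0.37) in *Myh4*-main, −0.56 (−0.67 to −0.45) in *Myh1*-main and −0.15 (−0.38 to 0.09) in *Myh2*-main nuclei. *Cox7c* had 0.88 (0.48 to 1.29), 0.61 (0.39 to 0.83) and 1.27 (0.71 to 1.86), and *Cox6a2* had 0.99 (0.40 to 1.60), 0.77 (0.47 to 1.08) and 0.59 (0.07 to 1.14).

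Complex IV subunits with a muscle form and a general form were read as shares of the pair, which do not depend on scaling between libraries. *Cox6a2* held 53.9% (49.4 to 58.4) of the 497 UMIs of *Cox6a2* and *Cox6a1* in myonuclei of the library labelled WT against 70.8% (67.3 to 74.1) of 729 UMIs in that labelled KO. The general form *Cox6a1* had 25.2 and 21.6 CPM, a ratio of −0.22 (−0.50 to 0.06). By fibre type the *Cox6a2* share was 42.6% (32.8 to 52.8) in *Myh4*-, 56.3% (50.1 to 62.2) in *Myh1*- and 58.6% (46.2 to 70.2) in *Myh2*-main nuclei of the library labelled WT. In the library labelled KO it was 70.2%, 69.2% and 70.1%, and the intervals of the libraries were apart in *Myh4*- and *Myh1*-main nuclei and overlapped in *Myh2*-main nuclei.

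*Cox7a1* held 27.0% (22.3 to 32.2) of the 326 UMIs of *Cox7a1* and *Cox7a2* in the library labelled WT against 39.2% (34.4 to 44.2) of 395 UMIs in that labelled KO. By fibre type the *Cox7a1* shares were 28.3% (17.5 to 41.4) and 40.4% (26.4 to 55.7) in *Myh4*-, 29.1% (23.0 to 35.8) and 32.9% (26.0 to 40.5) in *Myh1*- and 21.4% (10.3 to 36.8) and 43.8% (33.3 to 54.8) in *Myh2*-main nuclei, and the intervals of the libraries overlapped in all 3. They were apart in nuclei without a main *Myh* gene, where *Cox7a1* held 2 of 18 and 39 of 81 UMIs. *Cox8b* held 53.2% (48.9 to 57.4) of 553 UMIs of *Cox8b* and *Cox8a* and 54.0% (50.2 to 57.8) of 672 UMIs, so this pair did not shift between libraries by more than counting error. In the library labelled WT the *Cox8b* share was 39.5% (30.5 to 49.1) in *Myh4*-main and 65.7% (53.1 to 76.8) in *Myh2*-main nuclei, and in that labelled KO 48.9% (38.2 to 59.7) and 52.2% (44.2 to 60.1). *Cox6a2* spans 0.953 kb and lies wholly within *Itgad* on the opposite strand, which had 17 and 33 UMIs. *Cox7a2l*, related in sequence to *Cox7a2* but a factor for supercomplex assembly, had 32.0 and 28.5 CPM, a ratio of −0.17 (−0.41 to 0.08).

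**Figure D5:**
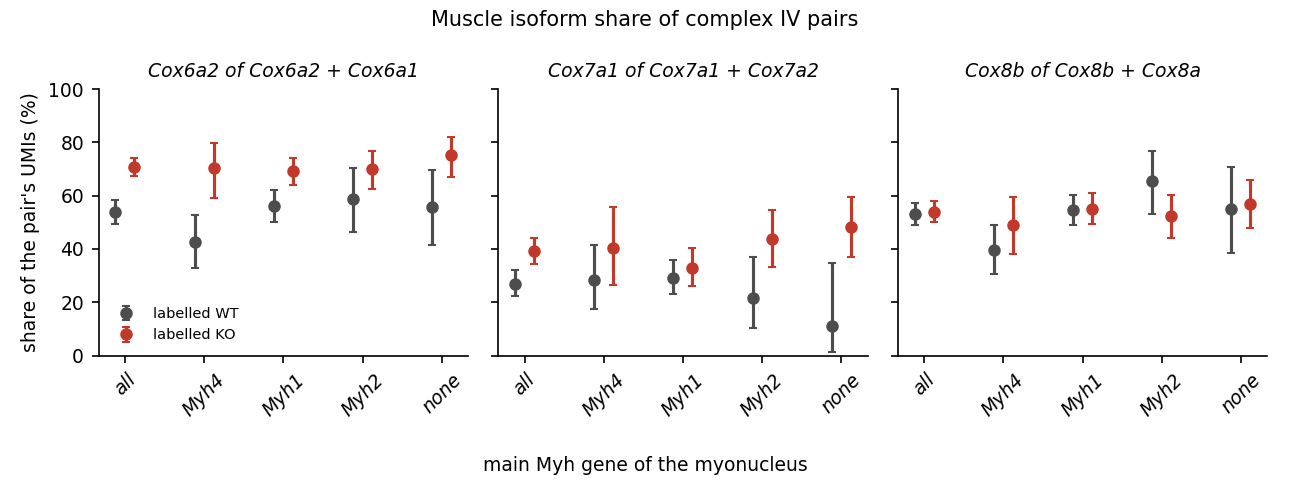
Share of a pair's UMIs held by the muscle form (y axis, %) for 3 complex IV pairs, in all myonuclei and by main Myh gene (x axis; none, no Myh UMI or a tie), for the library labelled WT (grey) and labelled KO (red); bars are exact 95% counting intervals. The Cox6a2 share is 53.9% (labelled WT) and 70.8% (labelled KO) in all myonuclei, the Cox7a1 share 27.0% and 39.2%, and the Cox8b share 53.2% and 54.0%.

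The muscle forms were also counted in nuclei other than myonuclei, where free RNA from fibres can add UMIs. There, in 1143 and 760 nuclei, *Cox6a2* had 6.85 CPM (16 UMIs) in the library labelled WT and 8.78 CPM (14 UMIs) in that labelled KO, against 29.5 and 52.4 CPM in myonuclei, and held 16 of 57 and 14 of 32 UMIs of its pair. All members together had 2089 and 2119 CPM in these nuclei, less than the 4608 and 4577 CPM of myonuclei. By class they ranged from 1392 CPM (nuclei with tenocyte markers) to 2736 CPM (nuclei with pericyte or smooth muscle markers) in the library labelled WT, and from 1652 CPM to 2721 CPM (nuclei with markers of muscle stem cells) in that labelled KO.

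The paralogs *Cox4i2*, a form of subunit 4 known from lung and vascular cells, and *Ndufa4l2*, a relative of *Ndufa4* known to be induced by hypoxia, were almost absent from myonuclei, with 1 and 6 UMIs in the library labelled WT against 3 and 3 in that labelled KO. In the 148 and 110 nuclei with pericyte or smooth muscle markers *Cox4i2* had 43.7 CPM (14 UMIs, 23.9 to 73.3) and 66.6 CPM (17 UMIs, 38.8 to 107), and *Ndufa4l2* had 78.0 CPM (25 UMIs, 50.5 to 115) and 102 CPM (26 UMIs, 66.6 to 149). In the 231 and 130 nuclei with endothelial markers *Cox4i2* had 1 and 0 UMIs and *Ndufa4l2* none in either library, while nuclei with markers of fibro-adipogenic progenitors had 8 and 4 UMIs of *Ndufa4l2*. The muscle form *Cox6a2* had 1 and 2 UMIs in the nuclei with pericyte or smooth muscle markers. *Cox6b2*, the testis form of subunit 6B, had 3 and 1 UMIs in myonuclei against 403 and 462 for *Cox6b1*, and *Cox8c*, a testis form of subunit 8, had 0 UMIs, which allows up to 0.330 and 0.305 CPM when a count of 0 is taken to allow 3 UMIs.

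Genes of the same pathway outside the rule were listed by function. The 47 assembly factors, electron carriers and partners of the chain had a summed ratio between libraries of −0.03 (−0.05 to −0.01), while 24 of the 31 with enough UMIs were below 0 and their median was −0.23. *Coq8a*, a kinase-like protein of ubiquinone synthesis, stood apart with 290 and 569 CPM, 0.97 (0.90 to 1.04), and was named, like *Nubpl* below, after its value was seen. The 13 genes of the citric acid cycle had −0.16 (−0.19 to −0.13), with 8 of 13 below 0, near the median gene. At least 1.5-fold lower were 1 of the 31 partners, *Nubpl*, which inserts iron-sulphur clusters into complex I, with −0.83 (−1.03 to −0.63), and 1 of the 13 citric acid cycle genes, and *Coq8a* was the only one of either list past 1.5-fold higher. Of 7164 genes, 9.62% were at least 1.5-fold lower, 6.18% at least 1.5-fold higher and 67.0% below 0. *Myh2*-main over *Myh4*-main, the partners had 0.88 (0.82 to 0.95) and 0.97 (0.91 to 1.03) and the citric acid cycle genes 0.80 (0.71 to 0.88) and 0.92 (0.84 to 1.00), beside 0.68 (0.63 to 0.73) and 0.73 (0.68 to 0.78) for all members. The members' ratios include *Cox16*, which ran the other way. It held 1190 of their 8742 UMIs (labelled WT) and 575 of 6066 (labelled KO) in *Myh4*-main nuclei, and the ratios without it were not computed. The mitochondrially encoded genes had 0.37 (0.23 to 0.51) and 0.30 (0.18 to 0.41) and the ribosomal protein genes 0.12 (0.00 to 0.23) and −0.15 (−0.24 to −0.05).

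Several members overlap other genes, which bears on nuclear counts when introns are read. Of the 95, 42 overlap an annotated gene of GENCODE M21 and 29 a protein-coding one, 7 of them on the same strand. *Cox6c* overlaps *Vps13b* over 5344 bases on the opposite strand, a gene with 5184 and 4918 UMIs of its own. The counting of strand is not stated, so such UMIs cannot be told apart.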

How the data were processed

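The measurements were UMI counts per gene and barcode from 2 single-nucleus libraries of mouse TA muscle, 1 labelled WT and 1 labelled KO. The count matrices were deposited by the authors, who used Cell Ranger 7.0.0 with mm10 and Seurat 5.0.3 per the processing notes. The labels name a Multiome kit and the methods a 3′ kit, and the counting of introns is not given in the sources used here. The members and gene lists were chosen with earlier results of these data known.

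From the counts, nuclei with 200 to 5000 genes and at most 5% mitochondrial UMIs were kept, and doublets were removed with Scrublet in scanpy 1.11.5 at 0.8% per 1000 barcodes (115 and 134 nuclei), which left 3674 and 3944 nuclei. The study's own filters and integration were not repeated. UMIs were summed per library and group of nuclei and divided by that group's total (CPM). Each myonucleus was assigned to the gene among *Myh4*, *Myh1*, *Myh2* and *Myh7* with most UMIs. Nuclei other than myonuclei were classed by marker genes. Intervals are exact 95% Poisson (levels), binomial conditional on the total (log2 ratios) or Clopper-Pearson (shares). UMI totals of 9088491 and 9849201 in myonuclei set their width. Counts and medians over genes used those with 200 UMIs over both libraries, or 50 UMIs where fibre types were involved. No test was run, as each genotype had 1 library.

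Genes were named by rule: the 3 members of highest mean CPM in each complex, the 5 highest and 5 lowest ratios between libraries, the 3 highest and 3 lowest between fibre types in each library, the paralog sets with tissue-restricted forms, and *Ndufb8*, *Sdhb*, *Uqcrc2*, *Atp5a1* and *Cox16*, which the study itself examined. *Atp5b* and *Cyc1* were chosen after their values were seen. One gene that the rule names is not reported here. Lists outside the rule were mitochondrially encoded chain genes, chain partners, citric acid cycle genes and cytosolic ribosomal protein genes. Spans and overlaps came from GENCODE M21 and promoters from RefSeq. Alternatives covered nucleus filters, fibre assignment, thinning to 1000 UMIs, weighting of nuclei or members, and TMM scaling (edgeR 4.0.16) or median of ratios. The calculations, in Python 3.11.15 with numpy 2.4.6, pandas 2.3.3 and scipy 1.17.1, were tested on simulated data.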

Additional observations from a re-analysis of the deposited data

Results flagged for a closer look

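The summed level of complex III differed in direction between fibre types. The log2 ratio of the library labelled KO over that labelled WT was 0.35 (0.18 to 0.53) in *Myh4*-main nuclei, −0.12 (−0.21 to −0.03) in *Myh1*-main nuclei and 0.17 (0.00 to 0.34) in *Myh2*-main nuclei. With 1 library per genotype the difference between fibre types was not tested. Under TMM scaling the *Myh1*-main value was 0.03, and the median member of complex III stood at 0.00 in *Myh1*-main and −0.05 in *Myh2*-main nuclei. In *Myh1*-main nuclei *Uqcrh* held 510 of 2167 UMIs of complex III (labelled WT) and 316 of 1788 (labelled KO). Its ratio there was −0.53 (−0.74 to −0.33), and the sum without it was not computed.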

How the results depend on the processing

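No paired analysis was possible because each genotype has 1 library. Of 340 alternative values for the counts and complexes, 252 stayed within the counting interval of the reported value (numbers of members, within 1.5 times, and the members' median, which has no such interval, at the same printed value) and 88 did not, and no value past 1.5-fold changed sign. The cause was not tested. The members' median ratio between libraries, 0.10 as reported, turned to −0.08 in nuclei without a mitochondrial UMI and was 0.02 thinned, 0.25 under either scaling, 0.06 with at most 1% mitochondrial UMIs, 0.08 with doublets left in or a 3% marker minimum, 0.09 with fibre groups weighted alike and 0.11 as a mean over nuclei. In nuclei without a mitochondrial UMI (28 members with enough UMIs) the members at least 1.5-fold lower and higher between libraries were 0 and 1, complex I was −0.11 (−0.10 in *Myh4*-main, −0.12 in *Myh2*-main nuclei), complex II in *Myh1*-main nuclei −0.02 and complex V 0.05. With the mean over nuclei the number lower was 2. TMM and median-of-ratios scaling gave the same values and shifted all ratios up by 0.15 and 0.14: lower 0 and higher 11, complex I 0.10 (*Myh4*-, *Myh1*- and *Myh2*-main nuclei 0.13, 0.04 and 0.16), II 0.06 (*Myh1* 0.02), III 0.22 (*Myh1* 0.03), IV 0.37 (0.47, 0.29 and 0.41) and V 0.27 (0.20, 0.22 and 0.34). Thinned to 1000 UMIs (34 members, with 67 and 100 myonuclei left out as shallower), the number higher was 1, complex II in *Myh2*-main nuclei −0.03, IV in *Myh4*- and *Myh1*-main nuclei 0.15 and 0.22, V in *Myh2*-main nuclei 0.34, and *Myh2* over *Myh4* in the library labelled WT 1.32 for III and 0.63 for V. As the median of members, ratios between libraries were 0.07 for complex I (*Myh4* 0.09, *Myh1* 0.01), −0.02 for II (*Myh2* −0.03), 0.16 for III (*Myh1* 0.00, *Myh2* −0.05), 0.16 for IV (0.17, 0.03 and 0.01) and 0.18 for V (*Myh4* 0.17, *Myh1* 0.14), and *Myh2* over *Myh4* for I labelled KO was 0.67. Without the member of most UMIs, *Myh2* over *Myh4* was 0.66 (I, labelled KO), 1.38 and 1.08 (II, labelled WT and KO) and 0.93 (V, labelled WT), and complex IV between libraries 0.28 (*Myh1* 0.22). With the main *Myh* gene at 80% of 3 or more UMIs, *Myh2* over *Myh4* labelled KO was 0.87 (I), 1.08 (III), 1.03 (IV) and 1.05 (V), and complex IV in *Myh2*-main nuclei 0.41. At most 1% mitochondrial UMIs gave 0.94 for *Myh2* over *Myh4* of IV labelled KO. Leaving doublets in, a 3% marker minimum and fibre groups weighted alike moved no complex beyond its interval. A minimum of 50 UMIs was applied only to the counts and median of members, as the complex sums use no minimum. Alternatives for the assembly factors, *Cox16*, *Cox6a2*, *Cox7c*, *Cox5b* and the members by span were added after seeing the data: of 77 such values 65 stayed within the interval and 12 moved, with *Cox5b* between 0.34 and 1.14 and *Cox16* between −0.64 and −0.35. Counting error is widest for members of few UMIs, and with 1 library per genotype differences between mice or preparations and genotype cannot be told apart.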
